A study of Rattus norvegicus with 4 samples.

Results

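Annexins are calcium-binding proteins that settle on the inner face of cell membranes, and the small S100A proteins are calcium sensors of which several bind to annexins. To describe this system in the neonatal rat cortex, the expression of 10 genes was followed by their symbols, namely the annexins Anxa1 to Anxa7 and the S100 genes S100a6, S100a10 and S100a11, out of 14004 named genes listed in any library. Each of the 10 had 1 entry in every library. They were picked because their levels with and without prenatal bisphenol A (BPA, a building block of plastics with oestrogen-like action) had drawn attention in these same libraries. Their BPA-to-control ratios are therefore given as a description, with no test.

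The material was cortex from neonatal rat pups. The labels give Wistar rats, postnatal day 1 and frontal cortex, whereas the methods give Wistar Furth rats, postnatal days 1 to 2 and prefrontal cortex. Dams of the BPA groups received 5000 µg BPA per kg body weight by oral gavage every day from gestational day 1 until birth, and dams of the control groups received the vehicle, ethanol in corn oil. RNA-seq gave 4 libraries, 1 for each combination of sex and treatment, here called control male, control female, BPA male and BPA female. Where 4 values follow each other, the male pair comes first and control comes before BPA within each pair. The methods speak of 3 pups per sex and treatment out of 6 litters, but whether a library pooled them is not stated, the dissection is described as having the meninges taken off, and a single dose was used. A difference between a BPA and a control library thus compares 2 libraries and has no replicate check.

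Annexins attach to negatively charged phospholipids when calcium rises, and in this way take part in membrane traffic, repair and the linking of membranes to actin. S100A proteins pair with themselves and then hold the tail of a partner. S100a10 is unusual in the family because it no longer needs calcium, and it joins Anxa2 in a stable complex under the plasma membrane that carries ion channels and serotonin receptors to the surface. S100a11 binds Anxa1 in the same manner, and S100a6, also called calcyclin, binds several annexins. In brain, Anxa1 and Anxa2 are best known from vessels, meninges, microglia and injured tissue, whereas Anxa6 is found in neurons.

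Values are FPKM, fragments scaled to transcript length and library size, so they can be compared between genes. The depth recovered from the step size of the FPKM was between 8934000 and 9235000 fragments per library. The male libraries listed 16782 and the female libraries 16819 transcripts. Markers of cortical projection neurons were plentiful, with a summed level over 7 genes of 545.4 to 600.2 FPKM. The labelled sexes could be checked with Eif2s3y, a Y-linked gene, which had 52.77 and 47.18 FPKM in the male libraries against 0 and 0.07 FPKM in the female ones.

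The promoters are shown first for Anxa2, which had the lowest BPA-to-control ratio of the members in females, and for S100a11, which had the lowest in males. RefSeq promoter windows of 300 bases, 250 of them before the start of the gene, were at hand for 8 of the 10 members (Anxa6 and S100a10 were not matched). The 250 bases before the start are printed on the plus strand of the assembly GRCr8, at chr8:78986002-78986251 for Anxa2 and chr2:181874882-181875131 for S100a11. Capitals mark GGGCGG as the GC box, TGANTCA as the AP-1 site and, nearest to the start, TATAAA as the TATA box.
Anxa2: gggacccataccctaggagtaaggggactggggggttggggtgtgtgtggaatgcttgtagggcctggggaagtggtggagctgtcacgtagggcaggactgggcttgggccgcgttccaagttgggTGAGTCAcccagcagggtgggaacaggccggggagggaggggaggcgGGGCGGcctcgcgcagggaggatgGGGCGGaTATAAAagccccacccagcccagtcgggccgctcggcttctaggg
S100a11: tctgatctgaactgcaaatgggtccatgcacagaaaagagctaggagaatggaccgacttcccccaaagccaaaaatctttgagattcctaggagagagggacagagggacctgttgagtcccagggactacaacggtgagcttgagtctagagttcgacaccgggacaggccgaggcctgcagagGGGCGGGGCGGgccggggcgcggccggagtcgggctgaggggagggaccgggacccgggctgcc
The Anxa2 window, with 67.2% G and C, held an AP-1 match at -123, GC boxes at -76 and -52 and a TATA box at -45, positions being those of the first base counted from the gene start. The S100a11 window, with 62.0% G and C, held a pair of overlapping GC boxes at -64 and -59 and none of the other letters searched.

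Searched on both strands over the 300 bases, the GC box was present in 7 of the 8 members (all but Anxa1) and in 33.1% of 33469 rat promoters. TATAAA was present in Anxa1 and Anxa2 and in 14.2% of promoters. The AP-1 letters were found in Anxa2, against 7.33% of promoters. CCAAT was found in Anxa4 and Anxa7, against 37.5%. These matches describe letters in the window and carry no information on binding. S100a11 and S100a10 are next to each other in RefSeq with no protein-coding gene between them, while S100a6 lies between S100a5 and S100a7a, with 61 protein-coding genes between it and S100a11.

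All 10 genes had a lower FPKM in the BPA than in the control library of males, and 9 of 10 did so in females, the exception being S100a11. Among all named genes listed, the share below control was 55.7% in males and 58.8% in females. Ratios are given as log2(BPA FPKM + 0.5) minus log2(control FPKM + 0.5). The median over the members was -0.40 in males and -0.67 in females, where the median of named genes with a mean of at least 1 FPKM was -0.04 and -0.05. In males 1 member (S100a11) and in females 3 members (Anxa2, Anxa4 and S100a6) had a log2 ratio of -1 or lower. The share of named genes that did so was 1.18% in males and 2.21% in females, and since the members were chosen on this contrast nothing is read from the comparison. For 9 members both BPA libraries lay below both control libraries, as did those of 33.4% of 10629 named genes with a mean of at least 1 FPKM.

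**Figure D1:**
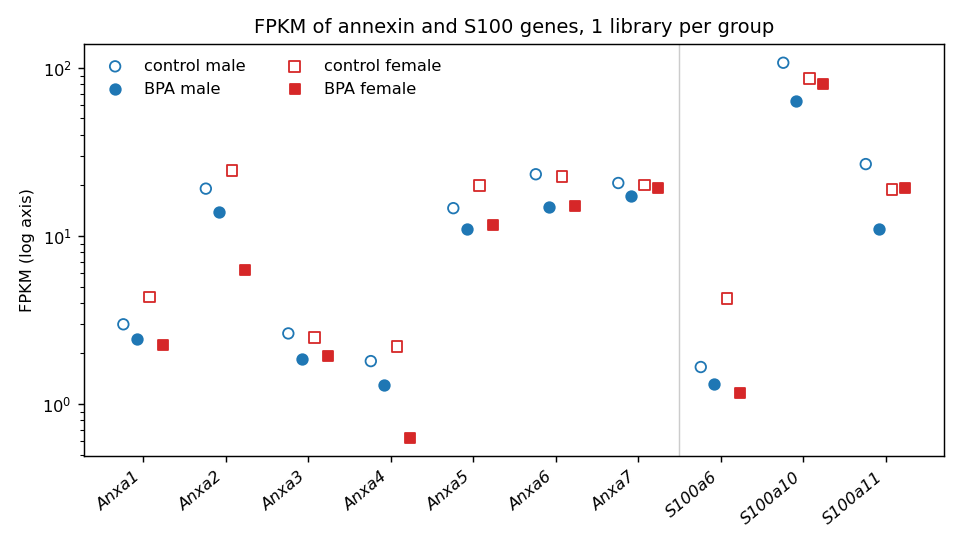
FPKM of the 10 genes (log axis) in the 4 libraries, with open symbols for control, filled symbols for BPA, circles for males and squares for females; each symbol is 1 library, so no error is drawn. S100a10 was highest throughout, from 63.75 to 107.29 FPKM, and the filled symbols lie below the open ones for all genes but S100a11.

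The Anxa2 and S100a10 genes encode the partners of one complex, and their pattern over the libraries was unlike. Anxa2 (Gene ID 56611, 1395 bases) had 19.12 FPKM (control) and 13.95 FPKM (BPA) in the male pair, and 24.53 FPKM (control) and 6.25 FPKM (BPA) in the female pair, from an estimated 236, 171, 293 and 75 fragments. Its lowest library was thus BPA female, at 25.5% of control female, while BPA male stood at 73.0% of control male. The log2 ratio was -0.44 in males and -1.89 in females. Without the pseudocount, the 95% counting interval of the ratio was -0.75 to -0.17 in males and -2.36 to -1.60 in females. Also without the pseudocount, the female minus male difference of the log2 ratios was -1.52, with a counting interval of -1.98 to -1.06. Such intervals are exact binomial ones for each pair and a normal approximation for the difference between pairs, and they cover counting error only, not the variation between animals or litters. All intervals in parentheses, and all differences between the male and the female ratio, are given in this way.

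S100a10 (Gene ID 81778, 573 bases) had 107.29 (control) and 63.75 (BPA) FPKM in males and 86.56 (control) and 80.16 (BPA) FPKM in females, from 508, 300, 397 and 369 fragments. It was the highest of the members in every library and lay between the 91.2 and 95.2 percentile of named genes. Here the lowest library was BPA male, at 59.4% of its control, and BPA female was at 92.6%. The log2 ratio was -0.75 in males (counting interval -0.96 to -0.54) and -0.11 in females (-0.32 to 0.09). The female minus male difference was 0.64 (0.35 to 0.93), opposite in direction to that of Anxa2. The level of S100a10 over that of Anxa2 was 5.61 (control) and 4.57 (BPA) in males, but 3.53 (control) and 12.83 (BPA) in females.

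Markers of several cell types ran over the libraries in the order of Anxa2, from control female as the highest through control male and BPA male to BPA female. This order held for the sums of 7 of 13 marker lists, namely fibroblast, endothelium, pericyte, microglia, radial glia, choroid plexus (at near-floor levels) and olfactory bulb. It is a rank order only, and some of its gaps were small. The control sums of radial glia were 832.5 (male) and 840.9 (female) FPKM, and the BPA sums of pericyte genes 49.6 (male) and 48.3 (female). The olfactory bulb sum in BPA male was at 25.1% of control, where Anxa2 was at 73.0%. Of 10629 single named genes with a mean of at least 1 FPKM, 9.28% had it, which is a share of genes and not of sums. Of 14 markers of meningeal and perivascular fibroblasts, all 14 were lower in BPA than in control in both sexes, with a summed level of 519.6 FPKM (control) and 242.6 FPKM (BPA) in the male pair, and 676.6 FPKM (control) and 164.0 FPKM (BPA) in the female pair. The summed level in BPA was 46.7% of control in males and 24.2% in females. In bulk tissue, fewer cells of a type and less RNA per cell cannot be told apart, and the part of these cells in the result was not tested.

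Anxa1 and S100a11 form the other annexin and S100 pair. Anxa1 (Gene ID 25380, 1401 bases), the glucocorticoid-induced anti-inflammatory annexin, had 2.98 (control) and 2.44 (BPA) FPKM in males and 4.33 (control) and 2.24 (BPA) FPKM in females, from 37, 30, 52 and 27 fragments. The BPA libraries were close to each other and the control female library was the highest. Its log2 ratio was -0.24 in males (-1.04 to 0.44) and -0.82 in females (-1.68 to -0.26), and the difference between the sexes had a counting interval of -1.63 to 0.31.

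S100a11 (Gene ID 445415, 476 bases) had 26.76 FPKM (control) and 11.01 FPKM (BPA) in the male pair, and 18.89 FPKM (control) and 19.29 FPKM (BPA) in the female pair, from 103, 42, 70 and 72 fragments. The male libraries were thus the highest and the lowest of the 4, while the female libraries were nearly equal. BPA male stood at 41.1% of its control and BPA female at 102.1%. The log2 ratio was -1.24 in males (-1.84 to -0.76) and 0.03 in females (-0.46 to 0.53), and the female minus male difference was 1.31 (0.61 to 2.01). Among 10629 named genes with a mean of at least 1 FPKM, 1.27% had ratios, here with the pseudocount of 0.5, that differed by 1 or more between the sexes. Since the members were chosen on these ratios, nothing is read from this share. The level of S100a11 over that of Anxa1 was 8.98 (control) and 4.51 (BPA) in males, against 4.36 (control) and 8.61 (BPA) in females.

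S100a6 (Gene ID 85247, 472 bases), which is expressed by fibroblasts and dividing cells, was scarce. It had 1.66 (control) and 1.32 (BPA) FPKM in males and 4.24 (control) and 1.17 (BPA) FPKM in females, from only 6, 5, 16 and 4 fragments. Control female stood above the other 3 libraries. Its log2 ratio was -0.25 in males (-2.31 to 1.72) and -1.51 in females (-4.05 to -0.38). With so few fragments, the difference between the sexes had a counting interval of -3.86 to 0.80.

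**Figure D2:**
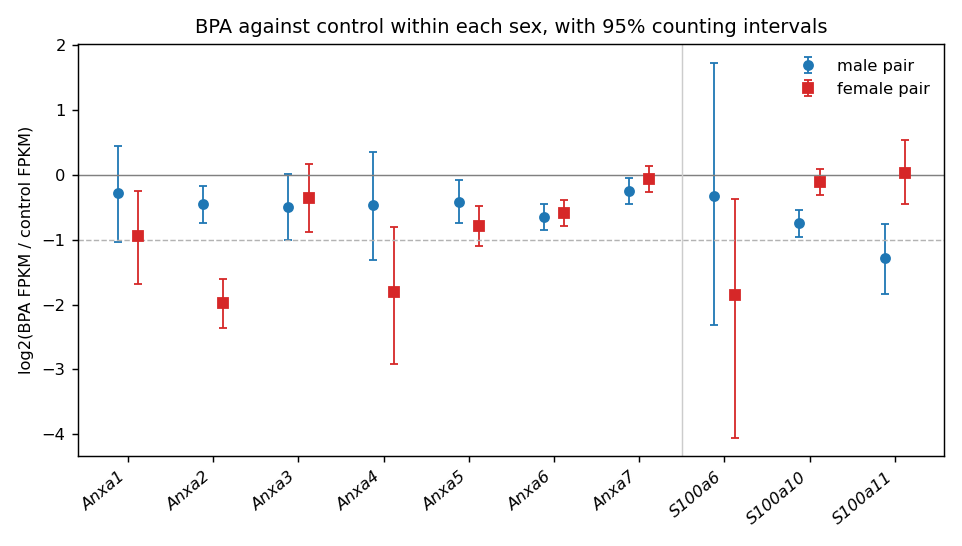
Log2 ratio of BPA to control FPKM without a pseudocount, for the male pair (circles) and the female pair (squares) of each gene, with bars for the 95% counting interval; the dashed line is at -1. The female interval lies below the male one for Anxa2 and above it for S100a10 and S100a11, whereas both overlap for the other 7 genes.

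Of the annexins without one of the S100 genes as their main partner, Anxa5 and Anxa6 were well measured. Anxa5 (Gene ID 25673, 1429 bases), which binds exposed phosphatidylserine and is used to stain dying cells, had 14.63 FPKM (control) and 10.97 FPKM (BPA) in the male pair, and 19.99 FPKM (control) and 11.55 FPKM (BPA) in the female pair. From 185, 138, 244 and 142 fragments, the BPA libraries were alike and both controls lay above them. Its log2 ratio was -0.40 in males (-0.74 to -0.09) and -0.77 in females (-1.10 to -0.48).

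Anxa6 (Gene ID 79125, 2625 bases), the annexin with a doubled core that works in endocytosis, had 23.28 (control) and 14.79 (BPA) FPKM in males and 22.54 (control) and 15.01 (BPA) FPKM in females. It rested on 551, 348, 517 and 346 fragments and gave nearly the same values in both sexes. The log2 ratio was -0.64 in males (-0.85 to -0.46) and -0.57 in females (-0.79 to -0.39). The difference between the sexes, 0.07, had a counting interval of -0.21 to 0.35.

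Anxa7 (Gene ID 155423, 2480 bases), also called synexin and known for fusing secretory vesicles, lay near its controls in both sexes. It had 20.65 FPKM (control) and 17.37 FPKM (BPA) in the male pair, and 20.12 FPKM (control) and 19.20 FPKM (BPA) in the female pair. The log2 ratio was -0.24 in males (-0.45 to -0.05) and -0.07 in females (-0.27 to 0.13). BPA male was at 84.1% and BPA female at 95.4% of control.

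Anxa3 and Anxa4 were low. Anxa3 (Gene ID 25291, 3392 bases) had 2.63 (control) and 1.86 (BPA) FPKM in males and 2.48 (control) and 1.93 (BPA) FPKM in females, with a log2 ratio of -0.41 in males (-1.01 to 0.01) and -0.29 in females (-0.88 to 0.16). Anxa4 (Gene ID 79124, 1988 bases), an annexin of secretory epithelia, had 1.80 FPKM (control) and 1.30 FPKM (BPA) in the male pair, and 2.20 FPKM (control) and 0.63 FPKM (BPA) in the female pair, from 32, 23, 38 and 11 fragments. BPA female was its lowest library, as for Anxa2. The log2 ratio of Anxa4 was -0.35 in males (-1.31 to 0.35) and -1.26 in females (-2.91 to -0.80), and the female minus male difference was -1.33 (-2.57 to -0.09).

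Summed over the family, the 7 annexins and the 3 S100 genes differed in the sex that stood lower. The annexins came to 85.1 (control) and 62.7 (BPA) FPKM in males and 96.2 (control) and 56.8 (BPA) FPKM in females, which is 73.7% of control in males and 59.1% in females. The S100 genes came to 135.7, 76.1, 109.7 and 100.6 FPKM in the same order, which is 56.1% of control in males and 91.7% in females. Without Anxa2, the other 6 annexins came to 73.9% of control in males and 70.6% in females, so the sex difference of the annexin sum rests largely on Anxa2. S100a10 alone made up between 42.0% and 50.9% of all member FPKM, so the S100 sum follows it. The median log2 ratio of the annexins was -0.40 (males) and -0.77 (females), beside -0.75 and -0.11 for the S100 genes. Reads of near-identical copies may be shared for Anxa2, Anxa7, S100a10 and S100a11, since RefSeq names 1, 4, 1 and 5 pseudogenes for them, so their levels are uncertain to that extent.

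**Figure D3:**
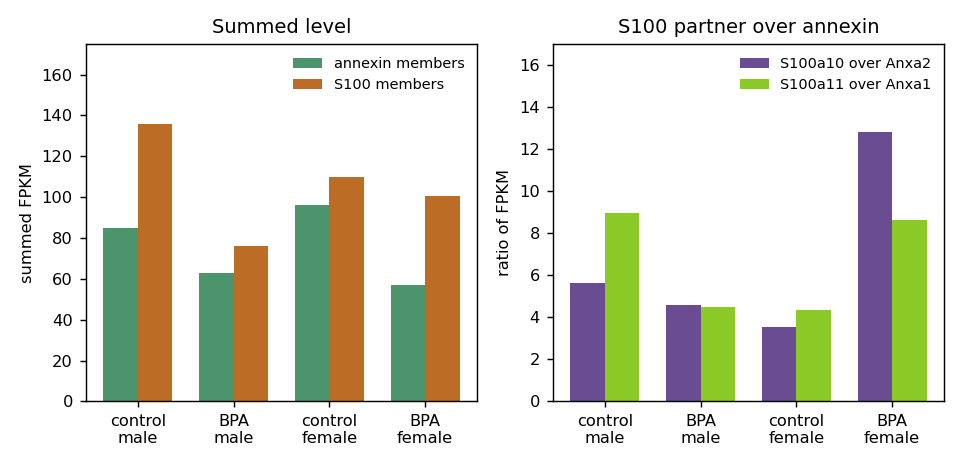
Left, summed FPKM of the 7 annexin and the 3 S100 members in each library; right, ratio of S100a10 to Anxa2 FPKM and of S100a11 to Anxa1 FPKM; each bar is 1 library, so no error is drawn. The annexin sum was lowest in BPA female (56.8) and the S100 sum in BPA male (76.1), and the S100a10 to Anxa2 ratio was highest in BPA female (12.83).

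The contrast of female with male libraries was not itself used to choose the genes. It was tested with limma on log2(FPKM + 0.5) over 13163 features, with treatment as a second term. None of the 10 members was called at an adjusted p under 0.05 (0 also at an unadjusted p under 0.05, beside 945 or 7.18% of all features), and 2 features, 0.0152%, were called in all, the Y-linked Eif2s3y and LOC100911498, a locus without a gene name, both named here after their values were seen. The adjusted p of the members ran from 0.725 for Anxa5, with a log2 difference of 0.25 (SE 0.116), to 0.997 for Anxa3. On named genes only, 11 of 10629 genes but no member were called. In that limma fit 1 member of 10, Anxa5, had an unadjusted p under 0.05, beside 865 of the 10629 genes. With 1 residual degree of freedom this test is weak, and its p-values measure the spread between these libraries only. Its error for a gene draws on how far the BPA-to-control ratio differs between the sexes. The members were chosen on these ratios, so the error is not independent of the choice. For genes such as Anxa2, S100a10 and S100a11 the sex difference had opposite signs in control and BPA libraries and partly cancels in the tested value. The lack of calls is therefore not read as equal levels in the sexes. Within the control libraries, the log2 difference of female from male was 1.13 for S100a6 (16 against 6 fragments), 0.47 for Anxa1, 0.44 for Anxa5, 0.35 for Anxa2 and 0.23 for Anxa4. It was -0.49 for S100a11 and -0.31 for S100a10, and between -0.07 and -0.04 for Anxa3, Anxa6 and Anxa7. Within the BPA libraries it was -1.10 for Anxa2, -0.67 for Anxa4, 0.78 for S100a11 and 0.33 for S100a10, and between -0.12 and 0.14 for the other 6.

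To see which genes had the pattern of Anxa2 and of S100a10, 8056 genes with a mean of at least 5 FPKM were ranked by the Euclidean distance over 3 log2 ratios, BPA to control in males, in females, and control female to control male. The 5 nearest to Anxa2 were Serpinf1 (distance 0.11), Crabp2 (0.36), Ptrf (0.43), Slc13a4 (0.48) and Aldh1a2 (0.49). Of these, Serpinf1, Crabp2 and Aldh1a2 were on the list of meningeal and perivascular fibroblast markers. Serpinf1, which encodes a secreted serpin, had 10.39 FPKM (control) and 7.45 FPKM (BPA) in the male pair, and 12.45 FPKM (control) and 3.08 FPKM (BPA) in the female pair. The 5 nearest to S100a10 were Ift88 (0.07), Ccs (0.09), Bcl2l2 (0.11), Lyrm7 (0.11) and Mon1a (0.15), none of them on a marker list. Ccs, the copper chaperone of superoxide dismutase, had 18.37, 11.12, 14.56 and 14.14 FPKM in the same order of libraries. Each likeness is over 4 libraries and describes them only.

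Other genes of the system were read from a limma fit of BPA against control over both sexes, in which the male and the female library of a treatment served as its replicates. This fit called 74 of 13163 features (0.562%), 14 higher and 60 lower, and 2283 (17.3%) had an unadjusted p under 0.05. Of the other annexins, 3 of 5 were listed and 1, Anxa11, could be tested. Anxa11, a partner of S100a6, had 3.85 (control) and 3.08 (BPA) FPKM in males and 3.59 (control) and 1.64 (BPA) FPKM in females, and was not called (log2 difference -0.61, SE 0.275, adjusted p = 0.317; 0 at an unadjusted p under 0.05).

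Of 13 other S100 genes, 9 were listed and 4 tested. None was called by limma and 1, S100b, had an unadjusted p under 0.05. S100b, the astrocyte calcium sensor, had 12.57 and 10.83 FPKM in males and 12.21 and 9.66 FPKM in females, with a log2 difference of -0.26 (adjusted p = 0.257). S100a16 (log2 difference -0.13, adjusted p = 0.429) and S100a13 (-0.40, adjusted p = 0.306) were not called either. The median over the 4 tested was -0.20, beside -0.04 over all features.

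Of 26 genes for proteins that bind or are controlled by annexins and S100 proteins, 23 were listed and 15 tested, with a median log2 difference of -0.14. None was called by limma, and 5 had an unadjusted p under 0.05. The 3 most abundant were Capns1, the small calpain subunit, with a log2 difference of 0.02, Ctsb, a lysosomal protease, with -0.08, and Cacybp, which binds S100a6, with 0.04, and their adjusted p was 0.927, 0.536 and 0.812. Ahnak, the giant scaffold held by the Anxa2 and S100a10 complex and named here after its values were seen, had 2.23 FPKM (control) and 1.27 FPKM (BPA) in the male pair, and 3.63 FPKM (control) and 1.37 FPKM (BPA) in the female pair (log2 difference -0.88, adjusted p = 0.203).

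Of 26 other proteins that bind phospholipid in a calcium-dependent way, such as copines and synaptotagmins, 24 genes were listed and 20 tested, with a median log2 difference of -0.24. None was called by limma, and 7 had an unadjusted p under 0.05. The most abundant were the synaptotagmins Syt4 (log2 difference 0.04, adjusted p = 0.80), Syt5 (0.12, adjusted p = 0.413) and Syt11 (0.05, adjusted p = 0.639). Cpne6, a copine of excitatory neurons named here after its values were seen, missed the threshold narrowly. It had 16.95 (control) and 6.97 (BPA) FPKM in males and 20.98 (control) and 9.22 (BPA) FPKM in females. The limma log2 difference was -1.18 (SE 0.163, adjusted p = 0.0504). Cpne6 was called with a pseudocount of 1, with a mean of at least 5 FPKM, with a sex term or on named genes only. It was not called with a pseudocount of 0.1 (limma adjusted p = 0.0553), with centring (0.0571) or with no filter on low values (0.162). With 1 library left out the log2 difference ran from -1.37 to -0.99.

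The libraries also differed in markers of other cells that carry annexins. Among the meningeal and perivascular fibroblast genes, limma called 8 of 14 lower, and all 14 had an unadjusted p under 0.05. It also called 8 with a pseudocount of 0.1 or 1 or with centring, and 9 with a sex term. With a mean of at least 5 FPKM it called 11 of 13 (164 of 9095 features in all). On named genes only it called 12 of 14 (477 of 10629 genes in all). With any 1 of the 4 libraries left out, or with no filter on low values, 0 of the 14 were called, with 11 to 14 at an unadjusted p under 0.05. The most abundant were Ptgds, a prostaglandin synthase, with 214.04, 109.08, 320.0 and 66.86 FPKM (adjusted p = 0.073), Igf2, a growth factor, with 61.22, 18.69, 61.1 and 14.13 (adjusted p = 0.0254), and Col1a2, a collagen chain, with 50.45, 21.71, 58.67 and 17.15 (adjusted p = 0.0256). None of the 14 was at 0 in any library.

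Endothelial genes, 7 of 8 listed, summed to 96.3 FPKM (control) and 82.3 FPKM (BPA) in the male pair, and 114.3 FPKM (control) and 66.6 FPKM (BPA) in the female pair, and 0 of 7 were called by limma. Microglia and macrophage genes, all 10 listed, summed to 43.3, 37.7, 47.9 and 28.2 FPKM, with 0 of 8 tested called. Pericyte and smooth muscle genes summed to 61.2, 49.6, 67.1 and 48.3 FPKM (0 of 7 called), and radial glia and astrocyte genes to 832.5, 704.6, 840.9 and 593.3 FPKM (0 of 8 called). These 4 sums had the library order of Anxa2, but not all of their genes did. In males, 6 of 10 microglia and 4 of 7 pericyte genes were lower in BPA, and Fabp7, the largest part of the radial glia sum, was highest in control male (532.55 FPKM, against 515.56 in control female). On named genes only, limma called 3 endothelial, 2 microglia, 2 pericyte and 4 radial glia genes lower. That fit called 477 of 10629 genes (4.49%), 403 of them lower. With a mean of at least 5 FPKM it called 0, 0, 1 and 2, beside 164 of 9095 features in all. Choroid plexus genes, all 6 with a mean under 1 FPKM, summed to 2.6 FPKM at most.

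Interneuron genes came to 89.6% of control in males and 88.2% in females (0 of 5 called by limma), and oligodendrocyte lineage genes to 88.3% and 83.1% (0 of 6 called). On named genes only, in the fit that called 4.49% of all genes, 2 interneuron genes and 1 oligodendrocyte lineage gene were called lower. The sums of cortical and striatal neuron genes lay above control. Cortical projection neuron genes came to 107.7% of control in males and 106.0% in females, with Neurod2 called higher and Slc17a7 called lower. Striatal genes came to 161.3% and 166.2% (2 of 7 called, both higher, Rxrg and Penk), and the olfactory bulb gene Cdhr1 was called lower, from 41.1 and 44.48 FPKM in the control to 10.77 and 9.29 FPKM in the BPA libraries of males and females. With no filter on low values none of these 5 genes was called, and with 1 library left out Neurod2, Slc17a7 and Penk were called in no fit, Rxrg only without control female, and Cdhr1 only where the library left out was a control. Penk was also not called with sex as a term (adjusted p = 0.0514, with 0.00425 to 0.238 over the alternatives), and Neurod2 not with a pseudocount of 0.1 (adjusted p = 0.0538, with 0.00439 to 0.257). The region held by a sample and the treatment cannot be told apart where such markers differ with the groups.

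**Figure D4:**
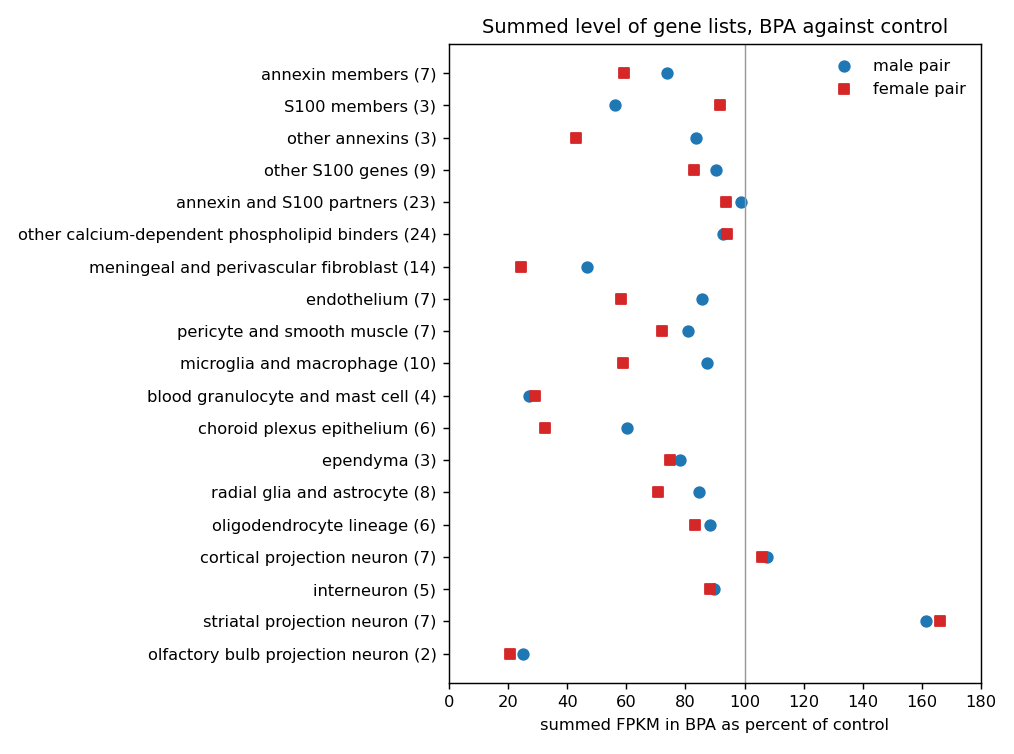
Summed FPKM of the annexin and S100 members and of each gene list in the BPA library as a percent of the control library, for the male (circles) and the female pair (squares), with the number of genes listed in parentheses and a line at 100%. The annexins (73.7% and 59.1%) and the S100 members (56.1% and 91.7%) lie below 100% in both pairs, as does every list shown except the cortical (107.7% and 106.0%) and striatal (161.3% and 166.2%) projection neuron genes.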

How the data were processed

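RNA-seq of rat cortex was analysed from 4 libraries, grouped by sex and treatment as the labels give them. The deposited values are FPKM, which the authors normalized for length and depth; the submitters' notes name rn6, Bowtie 2, HISAT and RSEM (versions not given in the sources used here).

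FPKM at 0.01, the lowest value listed, was taken as 0 and entries were summed per symbol. Log2 ratios with a pseudocount of 0.5 understate the difference of scarce genes. Depth was recovered by searching for the library size at which most scarce transcripts, taken 60 bases shorter than listed, held whole fragments. Of 1534 to 1619 scarce transcripts per library, 88.6% to 89.9% came within 0.1 of one, so fragments are estimates. Intervals are 95% Clopper-Pearson intervals on them.

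Limma 3.58.1 (R 4.3.3), tested on simulated data, was run with a trend on log2(FPKM + 0.5) of features whose mean FPKM reached 1, with Benjamini-Hochberg adjustment, on treatment alone (2 residual degrees of freedom) or with sex (1). Other steps used Python 3.11.15, numpy 2.4.6, pandas 2.3.3, scipy 1.17.1 and matplotlib 3.10.9. Promoters and names are from RefSeq (GRCr8), where 12879 of 14004 named genes matched.

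The members, lists and tests were chosen with earlier results of these data known. The text names the members, the called genes of the 4 gene lists or otherwise the 3 highest by mean FPKM, the 5 nearest genes, and up to 3 genes of a marker list by control FPKM, and states exceptions. Alternatives were other pseudocounts, filters, scalings, a sex term, each library left out, and a fit on named genes only, added after the data were seen.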

Additional observations from a re-analysis of the deposited data

Results flagged for a closer look

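S100a11 had log2 ratios of -1.24 in males and 0.03 in females, the latter with a counting interval of -0.46 to 0.53 that leaves its sign undetermined, with 26.76 FPKM in control male against 11.01 in BPA male, and 18.89 in control female against 19.29 in BPA female. The female minus male difference of the log2 ratios, without a pseudocount, was 1.31, with a counting interval of 0.61 to 2.01. S100a11 is flagged only because its ratios had opposite signs in males and females. Anxa2 had the same sign in both and was not flagged, though its difference was larger in size (-1.52, counting interval -1.98 to -1.06). With 1 library per sex and treatment the difference was not tested against the variation between animals.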

How the results depend on the processing

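The 20 log2 ratios of the members kept their sign under all 6 alternatives (120 values), but for most of these no other outcome was possible. A pseudocount cannot change the sign of a ratio. Taking the highest entry of a symbol repeats the main value, as each member had 1 entry. Only scaling to an equal FPKM total and setting the median ratio of a pair to 0 could change a sign. Of the 120 values, 119 moved by less than the half-width of the counting interval. The exception was Anxa2 in females, at -1.39 with a pseudocount of 5. With that pseudocount, 0 members in males and 1 in females passed an absolute log2 ratio of 1, and the member medians were -0.25 in males and -0.36 in females, from -0.40 and -0.67. With a pseudocount of 1, 2 members passed in females. The limma count of 74 features became 0 without a filter on low values (2628 at an unadjusted p under 0.05). It was 164 of 9095 with a mean FPKM of at least 5, and 477 of 10629 (4.49%) on named genes only. With sex added as a term, that is as a replicate block of same-sex libraries, it was 86. Leaving out 1 library gave 0 to 6 (3 without control male, 0 without BPA male, 6 without control female and 0 without BPA female, the unadjusted counts at 0 being 1808 and 1898), where the lone library is assumed to vary like the others. Among partners, 1 gene (Sri, adjusted p = 0.023, with 0.0609 to 0.372 under the other alternatives) was called on named genes only. Among the other phospholipid binders, 1 gene (Cpne6) was called with a pseudocount of 1 and with the sex block, 2 (Cpne4 and Cpne6) with a mean FPKM of at least 5, and 5 (Cpne2, Cpne4, Cpne6, Syt1 and Syt9) on named genes only. The adjusted p of Cpne6 ran from 0.00233 to 0.257. Filters change the number of features adjusted for, and for the other alternatives the cause was not tested. Depth limited S100a6 (4 to 16 fragments) and Anxa4 (11 to 38 fragments) most. The libraries hold no replicate of a sex and treatment, so variation between litters is not measured.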

Other observations

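Inflammation-linked and fibroblast-linked S100 genes were near the floor and were not tested, since their mean was under 1 FPKM. S100a8, a neutrophil gene, had 0 (control) and 2.19 (BPA) FPKM in males and 0.37 (control) and 0.37 (BPA) FPKM in females, and its partner S100a9 had 0.99, 0.50, 0.51 and 0 FPKM. S100a4, known from motile and fibroblast cells, had 1.27 FPKM (control) and 0 FPKM (BPA) in the male pair, and 0.26 FPKM (control) and 1.04 FPKM (BPA) in the female pair. The annexins Anxa8 and Anxa10 stayed at or below 0.26 FPKM. The plasminogen system that the Anxa2 complex binds was also low apart from Plat, the tissue plasminogen activator, with 13.45 (control) and 14.59 (BPA) FPKM in males and 16.92 (control) and 10.36 (BPA) FPKM in females (limma log2 difference -0.28, adjusted p = 0.459). Plau, Plaur and Plg stayed at or below 0.45 FPKM. Of 7 granulocyte and mast cell genes 4 were listed, all scarce, with 2 of 4 lower in BPA in males and 3 of 4 in females. Tpsb2 had 1.04 and 1.15 FPKM in males and 0.64 and 0.21 FPKM in females, and Ngp did not pass 0.32 FPKM. Of the 2 tested, Cma1 was not called (adjusted p = 0.132), and Cpa3 was called lower by limma, with 3.21 and 3.56 FPKM in the control and 0.55 and 0.48 FPKM in the BPA libraries of males and females (adjusted p = 0.0465). The call was lost with sex as a term (the replicate block) (adjusted p = 0.0623), with a pseudocount of 0.1, with centring, with no filter and with any 1 library left out, and the adjusted p over the alternatives ran from 0.00168 to 0.257. These genes were named after their values were seen.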
